A study of Mus musculus with 7 samples.

Results

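The sites described here are the positions bound by both FRA2 and JUND, with no SOX2 event close by, in mouse striatal cells. A site is a FRA2 binding event with a JUND event at most 100 bp away and no SOX2 event within 1000 bp. There were 17707 such sites among 64579 FRA2 events (27.4%). Another 18008 FRA2 events (27.9%) had JUND within the same distance and a SOX2 event within 1000 bp, and these serve below as the shared sites with SOX2. A further 23822 FRA2 events (36.9%) had neither protein nearby.

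FRA2, made from Fosl2, and JUND are subunits of AP-1, a dimeric transcription factor that binds a short palindromic element through a pair of basic leucine zippers. Proteins of the Fos family such as FRA2 do not form stable dimers with themselves and bind DNA with a Jun partner, and JUND can fill that place or pair with itself. AP-1 is mostly found at enhancers, where it responds to growth factors, stress and neuronal activity. SOX2 is a high mobility group box factor of neural stem and progenitor cells that also binds mainly at enhancers.

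The proteins were mapped by chromatin immunoprecipitation followed by sequencing (ChIP-seq) in the immortalised lines STHdhQ111 and STHdhQ7, of strain 129SvEv/CD1 and derived from striatum at embryonic day 14. STHdhQ111 has the genotype HdhQ111/Q111, with an expanded glutamine tract in both copies of huntingtin of the kind that causes Huntington's disease, and STHdhQ7 has the genotype HdhQ7/Q7 with a short tract. Both lines were below 15 passages and grown at 33 °C, and a shift to 39 °C for 2 days stopped division. The groups used here are FRA2 and JUND in each line, Q111 and Q7, and SOX2 in Q7, with 1 sample per protein and line in which replicates 1 and 2 had been pooled. Samples of IgG, a nonspecific antibody control, stand beside them for both lines. Each genotype is represented by 1 cell line, so line and genotype cannot be told apart, and no difference below has a replicate check. SOX2 events used here are from Q7 alone, so the absence of SOX2 at a site means its absence in that line. The classes with and without SOX2, and distances to SOX2, thus rest on binding in Q7, a line of the comparison itself. How far this shapes the differences between the classes was not tested.

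Reads assigned to listed events came, for FRA2, to 3498922 in Q111 and 3340554 in Q7. JUND had 1609483 in Q111 and 1660158 in Q7. Positions are on the mouse genome build mm9. No annotation or sequence of that build was used here, so the sites are given by position, without nearby genes and without their bases.

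The 17707 sites carried more FRA2 in Q111 than in Q7. FRA2 reads per site had a median of 54 in Q111 (quartiles 31.8 and 91, range 0 to 4031) and 37 in Q7 (quartiles 20 and 65, range 0 to 865.9). The JUND event nearest to each site had a median of 29 reads in Q111 (quartiles 21 and 41, range 0 to 1021) and 23 in Q7 (quartiles 12.9 and 32, range 0 to 252). The read distributions of the lines overlapped broadly for both proteins. At the shared sites with SOX2 the order was the other way round: median FRA2 reads were 49 in Q111 and 70 in Q7, and median JUND reads were 32 in Q111 and 43 in Q7. The Q111 medians of the site classes therefore lay close together, while in Q7 the sites without SOX2 had 37 FRA2 reads against 70 at those with SOX2. SOX2, by which the classes were made, was mapped in Q7 alone.

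As a log2 fold of Q111 over Q7, after scaling by the median ratio of events marked present in both lines, the median was 0.46 for FRA2 (quartiles -0.36 and 1.52) and 0.37 for JUND (quartiles -0.56 and 1.38; below 0, at -0.29, with the control-read scaling described below). At the shared sites with SOX2 the medians were -0.42 for FRA2 and -0.53 for JUND. Over all listed events they were 0.00 for FRA2 and -0.13 for JUND. FRA2 events with neither protein nearby had a FRA2 median of 0.39, so a median above 0 was not particular to sites shared with JUND. The difference of medians, sites without SOX2 minus sites with SOX2, was 0.88 for FRA2 and 0.90 for JUND, and scaling does not change it. Sites are not replicates, so no test is attached. The classes also differed in reads: the median sum of FRA2 reads over both lines was 94 without SOX2 and 123 with SOX2.

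**Figure D1:**
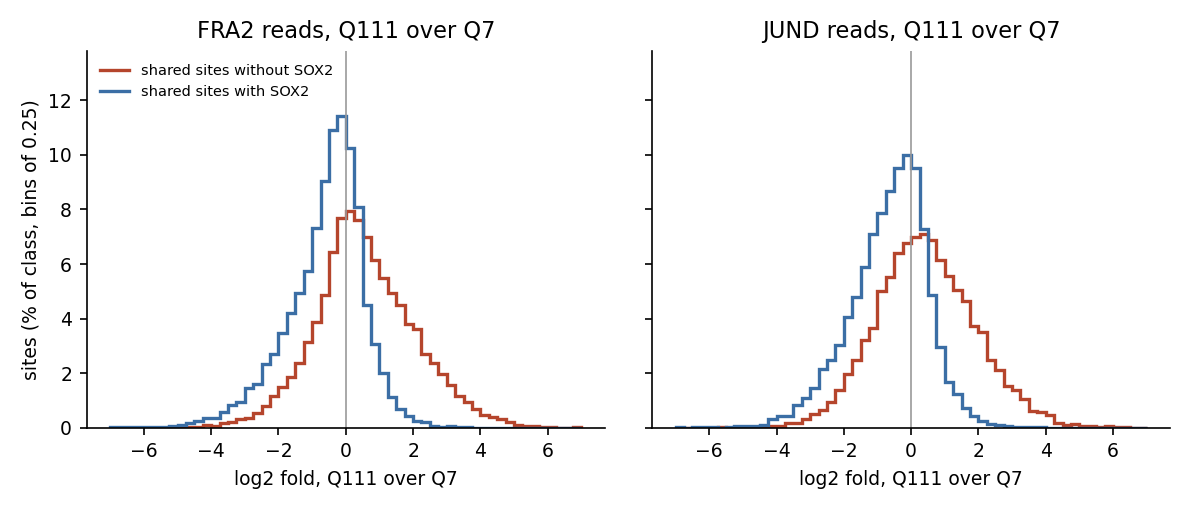
Distribution of the log2 fold, Q111 over Q7, of FRA2 reads (left) and JUND reads (right), as percent of sites in bins of 0.25, with values past 7 in the end bins. Shared sites without SOX2 have medians of 0.46 for FRA2 and 0.37 for JUND (-0.29 with control-read scaling), and the curve reaches further to the right than that of shared sites with SOX2, whose medians are -0.42 and -0.53.

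Event by event, the share of reads from Q111 was tested over the whole table with the exact binomial test, two-sided. Calls needed a fold of 2 or more and an adjusted p (Benjamini-Hochberg) below 0.05. FRA2 was called higher in Q111 at 6250 sites (35.3%, against 23.3% of all FRA2 events) and lower in Q111 at 2192 sites (12.4%, against 21.3%). At 9265 sites (52.3%) FRA2 was not called, and of all FRA2 events 44.6% were called in either direction. Of the FRA2 events with neither protein nearby, 32.0% were called higher in Q111 and 17.3% lower. The JUND event of the site was called higher in Q111 at 5541 sites (31.3%, against 17.4% of all JUND events) and lower at 2512 sites (14.2%, against 23.3%), while 40.6% of all JUND events were called in either direction. The test compares pairs of pooled libraries and covers counting error only. The 17707 sites used 17600 JUND events, 107 of which were nearest to 2 sites each.

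The balance of these calls rested in part on the scaling. With libraries scaled by their control reads, which lowers every FRA2 log2 fold by 0.36 and moves the median of all FRA2 events to -0.36, 59.4% of FRA2 calls at the sites were higher in Q111 (4816 higher and 3285 lower), against 74.0% with the median scaling. For JUND the same change lowers every log2 fold by 0.66 and moves the median of all events to -0.79. Then 35.9% of JUND calls at the sites were higher in Q111 (2995 higher and 5342 lower), against 68.8%. Under that scaling the site median stayed above the table's median: 0.10 against -0.36 for FRA2, and -0.29 against -0.79 for JUND.

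A called FRA2 difference of at least 4-fold towards Q111 was found at 2995 sites (16.9%, against 9.76% of all FRA2 events), and one of that size towards Q7 at 682 sites (3.85%, against 7.99%). For JUND the counts were 2555 (14.4%, against 7.42% of all JUND events) and 782 (4.42%, against 8.80%). Among all 35715 shared sites, those without SOX2 make up 49.6%. They held 96.0% of the 3119 shared sites where FRA2 was at least 4-fold higher in Q111, and 24.0% of the 2843 where it was at least 4-fold lower. An event was listed when it was marked present in at least 1 line, and most of these sites carried the FRA2 mark only in the line where FRA2 was high. Of the 2995 sites without SOX2 that were 4-fold higher, 2612 had the mark in Q111 only and 383 in both lines. Of the 682 that were 4-fold lower, 618 had it in Q7 only and 64 in both. The shares above are therefore a description of the listed events. Among sites with both proteins marked in both lines, FRA2 was at least 4-fold higher at 73 of 5045 sites without SOX2 and 16 of 9625 with SOX2, and at least 4-fold lower at 5 and 48.

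FRA2 and JUND moved together at these sites. Both were called higher in Q111 at 4851 sites (27.4%, against 15.0% of all shared sites) and both lower at 1673 sites (9.45%, against 17.3%). Among the 5045 sites with both proteins marked in both lines, both were higher at 358 (7.10%) and both lower at 56 (1.11%). At such sites with SOX2 the shares were 2.18% and 6.26%. With control-read scaling both were higher at 2695 sites (15.2%, against 7.95% of all shared sites) and both lower at 3031 (17.1%, against 28.1%). With the median scaling neither was called at 7739 sites (43.7%, against 49.4% of all shared sites). FRA2 alone was called towards Q111 at 1397 sites (7.89%, against 4.96%) and towards Q7 at 518 (2.93%, against 3.85%). JUND alone was called towards Q111 at 689 sites (3.89%, against 2.86%) and towards Q7 at 837 (4.73%, against 6.61%). At sites where both were higher, median FRA2 reads were 70 in Q111 and 13 in Q7, and median JUND reads were 37 in Q111 and 8 in Q7. At sites where both were lower, FRA2 had 16 in Q111 and 56 in Q7, and JUND had 8 in Q111 and 30 in Q7. Across the 17707 sites the log2 folds of the proteins were correlated with a Pearson r of 0.883 (Spearman rho 0.90). At the 5045 sites marked in both lines r was 0.746 (rho 0.70), and at sites called for neither protein 0.553. Shared sites with SOX2 had an r of 0.850 (rho 0.85), so the correlation was not particular to sites without SOX2. The immunoprecipitated libraries were separate, but each line's cells are shared, and the deposited control columns of the tables differed by a nearly constant factor within a line (median FRA2 over JUND 0.959 in Q111 and 1.04 in Q7), so they appear to hold one control library per line.

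**Figure D2:**
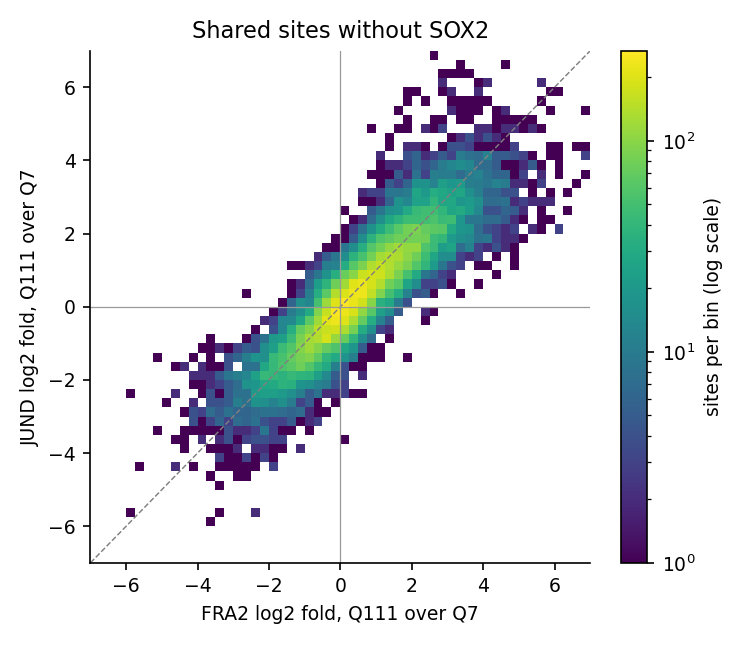
FRA2 log2 fold (x axis) and JUND log2 fold (y axis), Q111 over Q7, at the shared sites without SOX2, in bins of 0.25 with values past 7 in the end bins. Colour gives the number of sites per bin on a log scale, and the dashed line marks equal folds. The 17707 sites lie along that line (Pearson r of 0.883), with more of them in the upper right than in the lower left under the median scaling.

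Control reads differed between groups of sites as well. At the sites called higher in Q111 for both proteins, the mean of the FRA2 table's control column was 4.04 in Q111 and 4.01 in Q7, a log2 ratio 0.40 below that of the whole table. At the sites called lower for both, the control means were 6.12 in Q111 and 4.64 in Q7, a ratio 0.01 below the table's. In the JUND table's control columns the ratio was 0.61 below the table's at the sites higher for both and 0.21 below it at the sites lower for both. At the sites called for neither protein the FRA2 table's control ratio was 0.21 above that of the whole table. It was 0.53 below at sites where both proteins were marked present in Q111 alone, and 0.50 above at sites where both were marked in Q7 alone. The part of the control reads in the calls was not tested. With control reads subtracted from each line, the median log2 fold of the sites was 0.52 for FRA2 and 0.47 for JUND.

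The present marks that come with the tables rest on the same reads, so they describe the listed sites and add no separate evidence. FRA2 was marked present in Q111 at 87.0% of the sites and in Q7 at 74.1%, against 75.3% and 96.6% of the shared sites with SOX2. JUND was marked present in Q111 at 71.3% of the sites and in Q7 at 59.1%, against 62.9% and 94.7% of the shared sites with SOX2. Both proteins carried the mark in Q111 and neither in Q7 at 4351 sites (24.6%). FRA2 reads at these sites had a median of 48 in Q111 and 10.3 in Q7. The reverse pattern was found at 2058 sites (11.6%), with median FRA2 reads of 15 in Q111 and 37 in Q7. Choosing sites by the mark fixes the direction of these medians. The matching shares of the shared sites with SOX2 were not counted. At the 5045 sites where both proteins were marked in both lines, the median log2 fold was 0.28 for FRA2 and 0.15 for JUND. The difference from shared sites with SOX2 was smaller there, 0.38 for FRA2 and 0.33 for JUND, a restriction that leaves out sites with large folds.

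With the median scaling, the shift of FRA2 towards Q111 held over the range of read numbers. In 5 classes of shared sites ranked by FRA2 reads over both lines, the median FRA2 log2 fold of sites without SOX2 was 0.65, 0.38, 0.48, 0.45 and 0.39 from the lowest class to the highest. Shared sites with SOX2 had -0.96, -0.58, -0.55, -0.39 and -0.14 in the same classes. The gap between the site classes was therefore 1.61 in the lowest class (up to 57 reads) and 0.53 in the highest (above 215 reads). JUND medians of the sites without SOX2 were 0.78, 0.33, 0.35, 0.28 and 0.26 in the same classes. Control-read scaling lowers every FRA2 log2 fold by 0.36 and every JUND log2 fold by 0.66. The FRA2 medians then stay above 0 but are smaller, and the JUND medians fall below 0 in all but the lowest class.

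The fold also varied with the distance from the site to the nearest SOX2 event, a split made after the data had been seen. This distance had a median of 21.7 kb over the 17707 sites (quartiles 7.28 and 59.3 kb). The 1094 sites 1 to 2 kb away had a median FRA2 log2 fold of 0.01, and the 2152 sites 2 to 5 kb away had 0.21. At 5 to 10 kb the median was 0.25 over 2323 sites, at 10 to 30 kb 0.40 over 4787 sites, and at 30 to 100 kb 0.52 over 4673 sites. The 2678 sites over 100 kb from any SOX2 event (15.1%) had 1.30. JUND gave -0.08, 0.09, 0.14, 0.28, 0.46 and 1.17 in the same order.

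With distance from SOX2, read medians were lower in Q7 and somewhat higher in Q111. From 1 to 2 kb to over 100 kb from SOX2, median FRA2 reads per site were 46, 52, 52, 55, 55 and 60 in Q111, and 42, 42, 41, 39, 36 and 25 in Q7. Median JUND reads at the sites over 100 kb away were 30 in Q111 and 14 in Q7. FRA2 was marked present in Q111 at 92.0% of those sites and in Q7 at 55.8%. It was called higher in Q111 at 56.6% of them and lower at 7.65%, and both proteins were called higher at 47.6%. The control column of the FRA2 table had means of 4.39 in Q111 and 3.81 in Q7 there, a log2 ratio 0.20 below the table's.

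**Figure D3:**
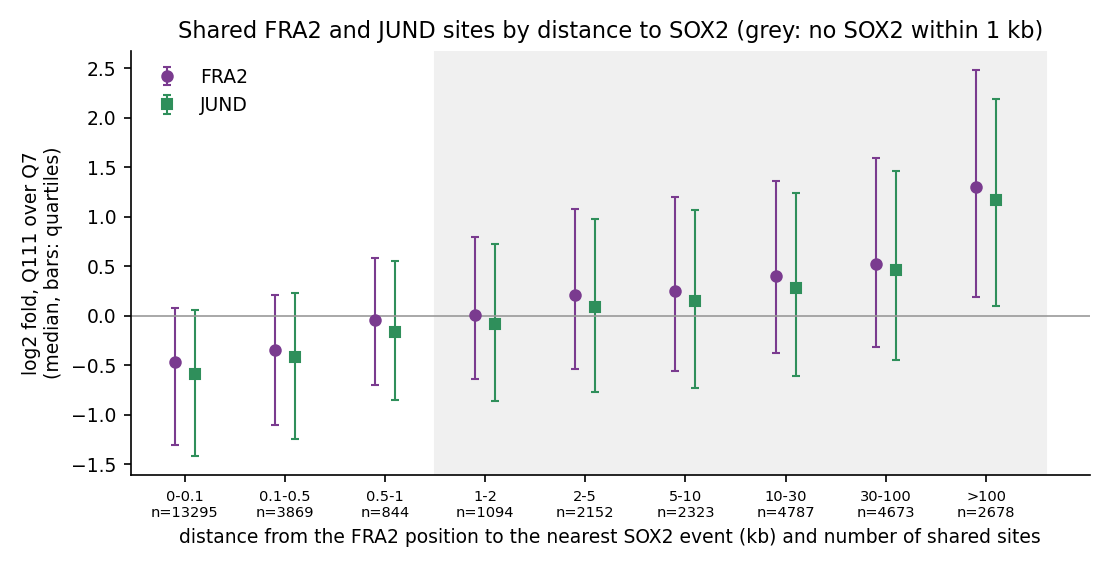
Median log2 fold, Q111 over Q7, of FRA2 (circles) and JUND (squares) at shared sites grouped by distance to the nearest SOX2 event in kb, with the number of sites under each group and bars from the lower to the upper quartile. The grey area holds the sites without SOX2 within 1 kb. FRA2 medians run from -0.47 within 0.1 kb of SOX2 to 1.30 beyond 100 kb.

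Sites over 100 kb from SOX2 had a higher median fold than sites 1 to 10 kb away on 20 of 20 chromosomes, for FRA2 (by 0.31 to 1.95) and for JUND (by 0.44 to 1.88). The same order was found in each of the 5 read classes, where the FRA2 medians of the far sites were 1.75, 1.31, 1.36, 0.94 and 0.83 and those of the near sites 0.16, 0.07, 0.21, 0.25 and 0.21. The far sites lay in 1113 separate stretches between neighbouring SOX2 events. Over all sites the difference between far and near was 1.11 for FRA2 and 1.09 for JUND. At sites where both proteins were marked in both lines the difference came to 0.19 in FRA2 and 0.16 in JUND.

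Some stretches between neighbouring SOX2 events held many sites. There were 46 stretches with at least 10 sites, 572 sites in all, with a median length of 970 kb. With the median scaling, the median FRA2 log2 fold was above 0 in 45 of them and at least 1 in 34. The stretch with most sites, 21, lay on chromosome 6 between the SOX2 events at 6528689 and 8244194. Its median FRA2 reads were 62 in Q111 and 18 in Q7, with FRA2 called higher at 15 sites and lower at 0. On chromosome 19, 16 sites between 48857061 and 52707146 had median FRA2 reads of 82.4 in Q111 and 8.20 in Q7, and FRA2 was called higher at 15. Control means in that stretch were 1.49 in Q111 and 3.89 in Q7, and their part in the result was not tested.

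On chromosome 3, all 16 sites between the SOX2 events at 29875703 and 30319586 were called higher for FRA2, with median reads of 55 in Q111 and 7 in Q7. The stretch with the highest median FRA2 log2 fold, 4.16 over 13 sites, lay on chromosome 11 between 110643351 and 112025471, and all 13 were called higher in Q111. The exception below 0 was a stretch on chromosome 12 between 25954099 and 28460865, with a median of -0.99 over 10 sites, 3 called higher and 4 lower.

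Sites lay in 2104 windows of 1 Mb. Of the 842 windows with at least 10 sites, the median FRA2 log2 fold was above 0 in 644 and below 0 in 198. These numbers are for the median scaling. They were not counted for control-read scaling or for shared sites with SOX2. The window from 54 to 55 Mb on chromosome 15 held the most sites called higher for both proteins, 25 of 33. Median FRA2 reads there were 70 in Q111 and 16 in Q7, while 18 shared sites with SOX2 in the same window had a median FRA2 log2 fold of -0.48. In the window from 84 to 85 Mb on chromosome 8, both proteins were higher at 21 of 28 sites, with median FRA2 reads of 94.5 in Q111 and 14 in Q7. The 7 shared sites with SOX2 there had a median FRA2 log2 fold of 0.79, in the same direction as the sites (2.17).

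The windows with most sites called lower for both proteins had 8 each. From 21 to 22 Mb on chromosome 1 these were 8 of 12 sites, with median FRA2 reads of 27.2 in Q111 and 65 in Q7. The 7 shared sites with SOX2 there had a median FRA2 log2 fold of -1.22, close to the -1.19 of the sites. From 80 to 81 Mb on chromosome 10 the sites lower for both were 8 of 29, with median FRA2 reads of 40 in Q111 and 58.6 in Q7. The 33 shared sites with SOX2 there had a median FRA2 log2 fold of -0.39, against -0.66 at the sites. The control means in that window were 13 in Q111 and 6.07 in Q7, and their part in the result was not tested.

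The densest 100 kb held 11 sites, on chromosome 13 from 113.1 to 113.2 Mb, with median FRA2 reads of 48 in Q111 and 19 in Q7 and FRA2 called higher at 7. The next held 10 sites each. On chromosome 3 from 30 to 30.1 Mb, inside the stretch named above, all 10 were called higher for both proteins. On chromosome 8 from 70.7 to 70.8 Mb, FRA2 was called higher at 3 and not called at the other 7, with medians of 53 in Q111 and 39 in Q7.

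By chromosome, the median FRA2 log2 fold of the sites ran from -0.14 on chromosome 17 (669 sites) to 0.77 on chromosome 14 (536 sites). With the median scaling it was above 0 on 19 of 20 chromosomes. Chromosome 17 had median FRA2 reads of 43 in both lines and median JUND reads of 24 in Q111 and 26 in Q7. Chromosome 14 had median FRA2 reads of 60 in Q111 and 34 in Q7. Chromosomes 7 and 9 were also low, with medians of 0.08 and 0.12. Control-read scaling lowers every FRA2 log2 fold by 0.36, which puts chromosomes 1 (0.35), 7 and 9 below 0 too. The chromosomes above 0 under that scaling were not counted. Sites without SOX2 stood above shared sites with SOX2 on 20 of 20 chromosomes, by 0.56 to 1.08 for FRA2 and by 0.63 to 1.07 for JUND. On chromosome 17 the control log2 ratio at the sites was 0.10 above the table's.

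**Figure D4:**
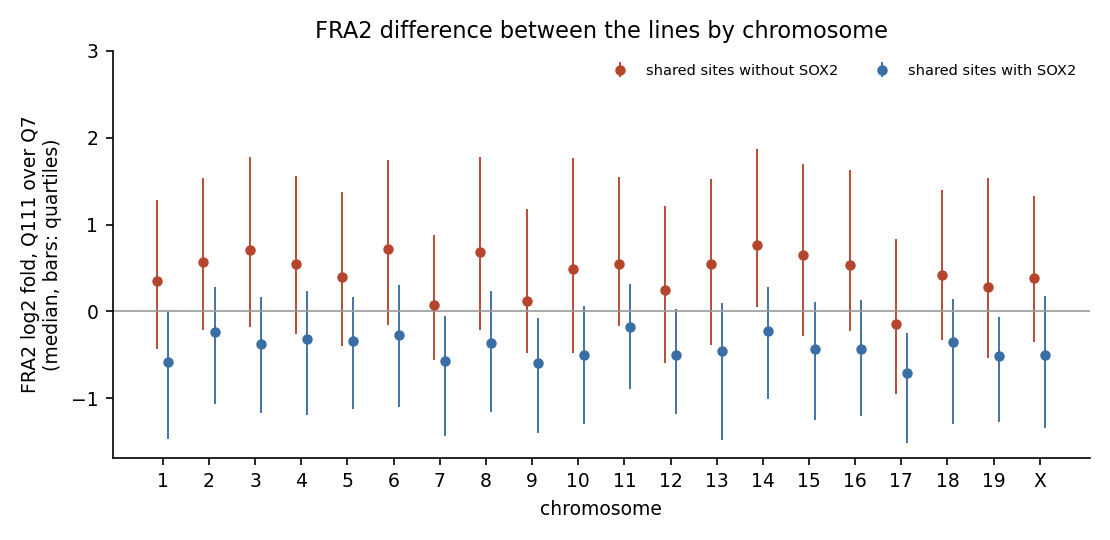
Median FRA2 log2 fold, Q111 over Q7, per chromosome for shared sites without SOX2 and shared sites with SOX2, with bars from the lower to the upper quartile. The sites without SOX2 lie higher on each of the 20 chromosomes. With the median scaling, their median is below 0 on chromosome 17 alone.

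The strongest single sites called in both tables show the range of the difference. They are ordered by how far the 95% Clopper-Pearson interval of the fold stays from 1 in the protein where it comes nearest, with 1 site per 5 kb. Towards Q111, the FRA2 positions in this order were 12235673 on chromosome 4, 111741574 and 111758502 on chromosome 11, 20572986 on chromosome 15, 106815657 and 110038492 on chromosome 11, 32679967 on chromosome 15 and 29991229 on chromosome 10. Of these 8 sites, 4 lay on chromosome 11, and 6 lay over 100 kb from SOX2, the farthest being the site on chromosome 15 at 20572986. The sites at 111741574 and 111758502 lay 16928 bp apart between the same SOX2 events, so they are not separate regions. Of all 4851 sites called higher for both proteins, 1276 lay over 100 kb from SOX2. These made up 47.6% of the 2678 sites that far away, while 27.4% of all 17707 sites were higher for both.

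At chromosome 11 position 110038492 FRA2 had 414 reads in Q111 against 12 in Q7, and JUND 2 bp away had 246 in Q111 and 8 in Q7. FRA2 was 32.1-fold higher in Q111 (interval 18.9 to 65.2) and JUND 27.6-fold higher (14.6 to 68.5). The control column held 1 read in Q111 and 3.6 in Q7 at that FRA2 event. At chromosome 10 position 29991229 FRA2 had 141.8 reads in Q111 against 1.5 in Q7, and JUND had 80.7 in Q111 and 0.80 in Q7. This site lay 11.5 kb from the nearest SOX2 event, and another FRA2 event was listed 195 bp away. At chromosome 11 position 106815657 FRA2 had 157 reads in Q111 against 0 in Q7, which is at least 50.7-fold higher in Q111 against a floor of 3 reads.

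Towards Q7, the order was 136451951 on chromosome 5, 10946436 on chromosome 10, 112797138 on chromosome 5, 31641071 on chromosome 17, 24876740 on chromosome 18, 47771972 on chromosome 13, 76921276 on chromosome 12 and 63925170 on chromosome 16. None of these 8 lay over 100 kb from SOX2. Of all 1673 sites called lower for both proteins 166 did, or 6.20% of the 2678 sites that far away. Over all 17707 sites, 9.45% were lower for both. At chromosome 5 position 136451951 FRA2 had 3 reads in Q111 against 170 in Q7, a difference of 50.3-fold towards Q7 (interval 19.7 to 287), and JUND had 2 in Q111 and 50 in Q7. At chromosome 12 position 76921276 FRA2 had 10.8 reads in Q111 against 100.7 in Q7, and JUND had 4 in Q111 and 59 in Q7. At chromosome 10 position 10946436 FRA2 had 0 reads in Q111 against 30 in Q7, and JUND had 0 in Q111 and 23 in Q7. Against the floor of 3 reads FRA2 was at least 10.3-fold and JUND at least 8.06-fold lower in Q111.

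At the other 5 sites FRA2 had between 2 and 12 reads in Q111 and between 58 and 121 in Q7, and JUND had 1 in Q111 and between 29 and 43 in Q7. FRA2 reads in the stronger line ran from 141.8 to 438.8 at the 8 sites towards Q111 and from 30 to 170 at the 8 towards Q7, ranges that overlap, and the order by interval favours sites with many reads.

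**Figure D5:**
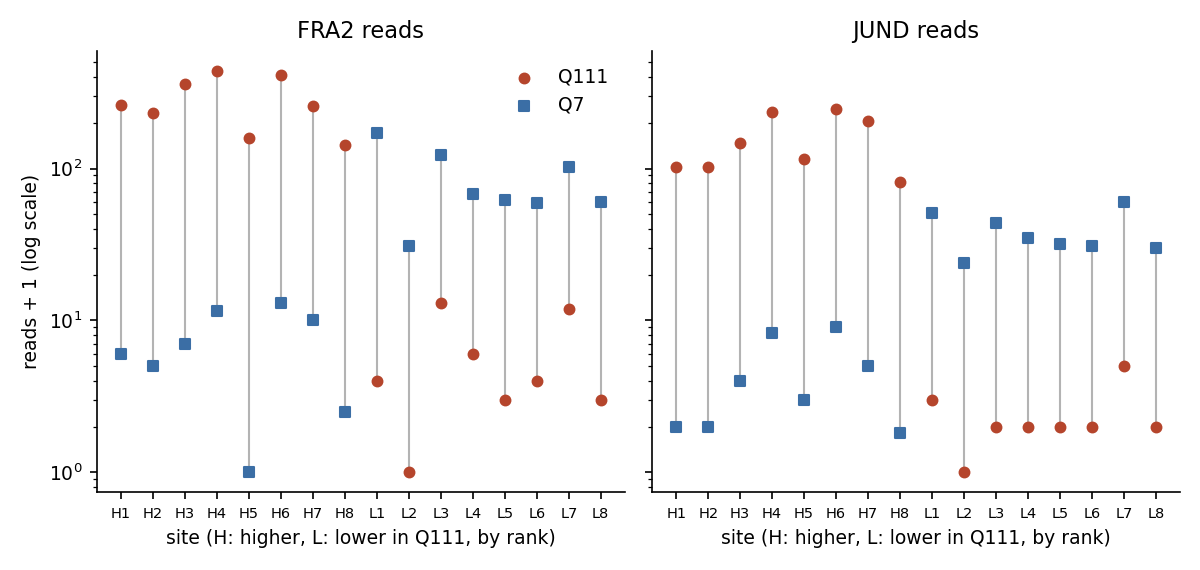
FRA2 reads (left) and JUND reads (right) plus 1, on a log axis, in Q111 (circles) and Q7 (squares) at the 8 sites with the farthest intervals towards Q111 (H1 to H8) and the 8 towards Q7 (L1 to L8), numbered in the order given in the text. Lines join the values of a site. FRA2 reads at H1 to H8 reach 141.8 to 438.8 in Q111, and at L1 to L8 they reach 30 to 170 in Q7.

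The 5 sites with most reads, leaving out 6 sites with 40 or more control reads, differed little between the lines. A left-out site, chromosome 11 position 3053864, had 4031 FRA2 reads in Q111 against 520.5 in Q7. The 5 do not stand for all strong sites: of 2031 sites with above 215 FRA2 reads, 26.2% were called higher in Q111 for FRA2 and 4.19% lower. At chromosome 13 position 45719420 FRA2 had 831 reads in Q111 against 865.9 in Q7, and JUND 66 bp away had 168.5 in Q111 and 149.1 in Q7. A second site 145 bp away, at 45719275, had 418 FRA2 reads in Q111 against 484 in Q7, so these neighbours are not separate regions. At chromosome 5 position 139691333 FRA2 had 694 reads in Q111 against 578 in Q7, a fold of 1.16 (interval 1.04 to 1.30). At chromosome 13 position 36295096 FRA2 had 575 in Q111 and 517 in Q7, a fold of 1.08 (0.955 to 1.22). At chromosome 19 position 55617148 FRA2 had 442 in Q111 and 496 in Q7, and JUND had 201 in Q111 and 203 in Q7.

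Among sites called for neither protein, the narrowest FRA2 intervals belonged to 4 of these sites and to chromosome 15 position 52944471. There FRA2 had 443 reads in Q111 against 503 in Q7, a fold of 0.853 (0.749 to 0.971). JUND had 119 in Q111 and 175 in Q7, a fold of 0.648 (0.508 to 0.821) that stayed within the 2-fold limit (exact binomial test, adjusted p = 0.00115). That site lay 1187 bp from SOX2, just outside the distance limit.

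The FRA2 difference was set against the JUND difference at each of 17599 reciprocal nearest pairs by a two-sided Fisher exact test on unscaled reads. They differed at 21 pairs (0.119% of pairs, against 0.262% of all 35176 pairs), with FRA2 further towards Q111 at 18 and JUND at 3. At an unadjusted p below 0.05 there were 1490 pairs (8.47%, against 9.45% of all 35176 pairs). With control reads subtracted first, the number of pairs called was 458, so the count rests on how the control is treated. The matching number over all pairs was not counted. At chromosome 10 position 34184301 FRA2 had 264 reads in Q111 against 124 in Q7, while JUND had 49 in Q111 and 66 in Q7 (exact test, adjusted p = 0.00236). At chromosome 6 position 88811108 FRA2 had 62 reads in Q111 against 148 in Q7, and JUND had 50 in Q111 and 33 in Q7 (exact test, adjusted p = 0.00386).

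Calls in opposite directions were found at 3 sites. At chromosome 10 position 75282799 FRA2 had 67 reads in Q111 against 31 in Q7, and JUND had 8 in Q111 and 21 in Q7. At chromosome 2 position 181100093 FRA2 had 8 reads in Q111 against 21 in Q7, and JUND had 38.6 in Q111 and 16.8 in Q7. The test of the difference gave adjusted p = 0.0577 for the first and 0.0957 for the second (Fisher exact test). At the third, chromosome 12 position 83924139, FRA2 reads numbered 65.1 in Q111 against 17.3 in Q7, and JUND reads 16 in Q111 against 40 in Q7.

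Within a line, JUND reads were fewer than FRA2 reads at most sites. The median log2 ratio of JUND over FRA2 reads was -0.99 in Q111 (quartiles -1.45 and -0.44) and -0.85 in Q7 (quartiles -1.30 and -0.33). The antibodies and library depths differ, so the level of this ratio has no meaning of its own: with each library scaled by its summed reads it was 0.13 in Q111 and 0.16 in Q7. The comparison with shared sites with SOX2 does not depend on that scaling. Sites without SOX2 minus sites with SOX2 gave a difference in this log2 ratio of -0.23 in Q111 and -0.15 in Q7. The ratio also depended on reads, in which the classes differ. Within the 5 read classes, a split added after seeing the data, the difference was -0.38, -0.49, -0.46, -0.40 and -0.29 in Q111, and -0.22, -0.28, -0.27, -0.29 and -0.29 in Q7.

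The FRA2 and JUND positions lay a median of 14 bp apart. In the 4013 sites at most 5 bp apart, median FRA2 reads were 68 in Q111 and 48 in Q7, and in the 415 sites 76 to 100 bp apart 31 in Q111 and 21 in Q7. Median JUND reads in the same groups were 30.8 and 27.6 in Q111 and 25 and 19 in Q7. The share of sites with FRA2 called higher in Q111 was 31.4% in the closest group and 46.0% in the farthest, and reads and distance changed together.

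Sites also differed by spacing. The 1736 sites with another FRA2 event within 500 bp (9.80%) had a median FRA2 log2 fold of 0.89, and the 15971 without one had 0.42. Reads of such neighbours are divided between events, and 36 sites had one within 100 bp. At the other end, the 921 sites with no FRA2 event within 50 kb had a median of 0.75 and FRA2 called higher in Q111 at 44.8%.

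Values near the limits of the definition were as follows. FRA2 events without SOX2 whose JUND event lay in the last 10 bp inside the 100 bp limit (133 events) had a median FRA2 log2 fold of 0.93, and those with JUND in the first 10 bp past it (103 events) had 1.06. Shared sites with SOX2 in the first 100 bp past the 1000 bp limit (123 sites, counted here) had a median of -0.07, and those in the last 100 bp inside it (136 sites, not counted) had -0.15.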

How the data were processed

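ChIP-seq events of FRA2 and JUND in Q111 and Q7 cells and of SOX2 in Q7 cells were taken from deposited event tables marked as GPS output. The settings of the caller were not given in the sources used. The submitters' processing notes name Bowtie 0.12.7 and the build mm9. The deposited IP columns hold expected counts of reads per event, not all whole, which were rounded for tests. The deposited Control columns hold a signal of scaled control reads. The deposited q-values (as −log10) and present marks were used for filters, and 22 other columns were not used here. Intervals and floors (3 reads) cover counting error only.

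Fold changes used a pseudocount of 0.5 reads and the median ratio of events present in both lines (log2 0.05 for FRA2, 0.07 for JUND). P-values come from exact binomial tests (smaller tail doubled) over all events with at least 20 reads, adjusted by Benjamini-Hochberg, or from Fisher exact tests over all reciprocal pairs. Events were matched by distance with numpy 2.4.6, pandas 2.3.3 and scipy 1.17.1. The tests were tested on simulated data. The definition, groupings and lists were chosen with earlier results of these data known. Named sites were the 8 per direction with the farthest intervals, the 5 with most reads, the 5 uncalled with the narrowest FRA2 intervals, the 4 pairs with the lowest p of the FRA2 against JUND difference, and opposite calls. Alternatives changed scaling, read minimum, fold limit, assumed spread, control subtraction, distance limits, q-value and pseudocount. Gene annotation and motif searches were not run, since no mm9 reference was used here.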

Additional observations from a re-analysis of the deposited data

Results flagged for a closer look

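The difference between the lines was not the same for FRA2 and JUND at 21 of 17599 reciprocal pairs without SOX2 (Fisher exact test on unscaled reads, Benjamini-Hochberg adjusted over all 35176 pairs). The 4 with the lowest p were as follows, with the difference given as FRA2 minus JUND log2 fold.

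At chromosome 11 position 3053864 the difference was 0.80 (adjusted p = 1.20e-05, exact test), with 4031 FRA2 reads in Q111 against 520.5 in Q7 and 1021 JUND reads in Q111 and 225.3 in Q7. This is one of 6 sites with 40 or more control reads, 103 in Q111 and 135 in Q7 in the FRA2 table. At chromosome 12 position 83924139 it was 3.20 (adjusted p = 1.31e-05, exact test), with calls in opposite directions: FRA2 had 65.1 reads in Q111 against 17.3 in Q7, and JUND had 16 in Q111 and 40 in Q7. Another FRA2 event was listed 123 bp from it. The difference was 1.54 at chromosome 10 position 34184301 and -1.81 at chromosome 6 position 88811108. The part that neighbouring events and control reads have in these differences was not tested.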

How the results depend on the processing

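No paired analysis was possible because each group had 1 sample of pooled replicates, and for the same reason no replicate could be left out. Of 221 values under alternatives, 138 stayed close to the reported value, 80 moved and 3 reversed in sign. The reversed ones were the JUND median log2 fold with control-read scaling (-0.29) and the ratio of JUND over FRA2 with libraries scaled by summed reads (0.13 in Q111, 0.16 in Q7). Counts of calls carry no sign, so they could only stay close or move. The limit for a close count was wide. FRA2 calls with control-read scaling, 4816 higher and 3285 lower, passed as close to 6250 and 2192. Other values were close when they lay inside the interval of the reported value. The balance of calls did turn under control-read scaling: lower calls then outnumbered higher calls for JUND and for both proteins.

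Counts are given as higher then lower in Q111. Control-read scaling gave 2995 and 5342 for JUND and 2695 and 3031 for both proteins. A minimum of 40 reads gave 3540 and 1231 for JUND and 2914 and 742 for both. A minimum of 100 reads gave 2618 and 685 for FRA2, 491 and 69 for JUND, and 411 and 30 for both. A fold limit of 4 gave 2995 and 682 for FRA2, 2555 and 782 for JUND, and 1967 and 408 for both. An assumed dispersion of 0.05, in place of the unknown replicate spread, gave 1298 lower for FRA2, 3179 and 1061 for JUND, and 2735 and 706 for both. A −log10 q of at least 5 gave 3850 and 1374 for FRA2. Fewer events pass the stricter limits by construction; for the other changes the cause was not tested.

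The difference of medians, sites without SOX2 minus with SOX2, was 1.03 for FRA2 and 1.09 for JUND with control reads subtracted, 0.81 and 0.80 with a pseudocount of 5. At sites present in both lines the values were 0.38 and 0.33, and the q limit gave 0.81 for FRA2. In the read classes 1, 2, 3 and 5 it was 1.61, 0.96, 1.04 and 0.53 for FRA2, and in classes 1 to 5 it was 1.72, 1.03, 0.99, 0.79 and 0.57 for JUND. The difference between sites over 100 kb and 1 to 10 kb from SOX2 was 1.29 for FRA2 and 1.46 for JUND with control reads subtracted, 0.98 and 0.87 with a pseudocount of 5, 0.78 and 0.83 with the q limit, and 0.19 and 0.16 at sites present in both lines. Every one of these differences stayed above 0. Pairs whose FRA2 and JUND differences differ numbered 458 with control reads subtracted. JUND had fewer reads than FRA2, with medians per site of 29 in Q111 and 23 in Q7, and the fold detectable at single events of that depth was not measured.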
